A study of Mus musculus with 19 samples.

Results

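The interaction of the 3xTg transgenes with Polb heterozygosity was examined over all 19 arrays of the series, none left out. For each gene, the log2 intensity of 3xTgAD was subtracted from that of 3xTgAD/Polb+/-, the log2 intensity of wild type was subtracted from that of Polb+/-, and the interaction is the first of these Polb differences minus the second. A value of 0 means that the loss of a Polb allele went with the same log2 difference with and without the transgenes. A positive value means that the difference lay further up in transgenic cortex, and a negative value that it lay further down. It answers whether the combined genotype departs from the sum of its parts.

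RNA came from prefrontal cortex of female mice killed at 20 months of age, labelled strain C57BL/6, with 1 sample on each Illumina bead array. The groups were 3xTgAD/Polb+/- (transgenes and a lost Polb allele, n = 4), 3xTgAD (transgenes with both Polb alleles, n = 6), Polb+/- (a lost Polb allele, no transgenes, n = 4) and wild type (n = 5). The alleles of the 3xTgAD line include APPswe and tauP301L, and the combined genotype was made by crossing it with Polb heterozygotes. The labels do not say whether the mice were littermates, nor that the samples of a group came from separate litters or days, so p-values measure only the spread between these arrays. As background, the line's human APP and tau transgenes are driven by the neuronal Thy1 promoter.

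DNA polymerase beta, encoded by Polb, fills the gap left when a damaged base is cut out during base excision repair, and it trims the sugar phosphate at the break. Cortical neurons do not divide and depend on this pathway for oxidised bases. Amyloid and tau pathology build up with age in the 3xTg line, which is used as a model of Alzheimer disease.

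Features of the arrays bear on the values below. The source label was spelled "20- month" on 11 arrays and "20 month" on 8, and between 13876 and 14396 probes were detected on the first set against 13205 to 13562 on the second, without overlap. Each genotype held both spellings (2 and 2 arrays in 3xTgAD/Polb+/-, 3 and 3 in 3xTgAD, 3 and 1 in Polb+/-, 3 and 2 in wild type), so spelling entered the fit as a term and the fitted differences are not plain differences of group means. The spelling follows the letters in the sample titles (A to C against D to F), and what it stands for is not stated. The column headings of 3xTgAD replicates 2 and 5 share a code, and their values were not identical. Their deviations from the fitted genotype and spelling terms correlated at 0.147 across genes. In the other 14 pairs of 3xTgAD arrays this correlation ran from -0.41 to -0.082. Whether replicates 2 and 5 came from 1 mouse was not tested. Within the group labelled 3xTgAD, replicates 4 and 6 had Polb values of 6.89 and 6.63, below every array labelled Polb+/-. Of 21 tested markers of cortical layers and pyramidal neurons, 17 were detected on every array, Syt6, Nxph4, Foxp2 and Rasgrf2 being the exceptions. Detection alone does not tell which tissue the RNA came from, and the share of cortex in each sample was not tested.

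Polb itself was the check of the labels. Its log2 intensity was 7.21, 7.09, 6.53 and 7.16 in 3xTgAD/Polb+/-, 6.63 to 7.79 with a median of 7.54 in 3xTgAD, 7.26, 7.21, 6.95 and 6.98 in Polb+/-, and 7.97, 7.6, 7.74, 7.82 and 7.55 in wild type. All wild type arrays lay above all Polb+/- arrays, while the 3xTgAD group overlapped 3xTgAD/Polb+/- through its replicates 4 and 6. The fitted Polb difference was -0.34 ± 0.19 (SE) with the transgenes and -0.61 ± 0.20 without them. The interaction of 0.27 ± 0.28 had a 95% interval from -0.31 to 0.86 (adjusted p = 0.882).

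No gene among 11072 (855 of them probes without a symbol) passed the interaction test, with limma and Benjamini-Hochberg adjustment at 0.05 (0%), and the smallest adjusted p was 0.652. At an unadjusted p under 0.05 there were 616 genes (5.56%), where 553.6 would be counted if p-values were uniform. Of these, 350 were positive (3.16% of all genes) and 266 negative (2.4%). With each array scaled to its median in place of quantile normalisation, the split was 390 positive and 139 negative and the median of all genes stood at 0.090, against 0.017. In no gene were the 3xTgAD/Polb+/- arrays apart from the 3xTgAD arrays and the Polb+/- arrays apart from the wild type arrays in opposite directions (0%).

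The precision was limited by the number of arrays. For the median gene the SE was 0.19 and the 95% interval reached 0.39 to each side of the estimate, and for 1 gene in 10 it reached at least 0.61. By these unadjusted intervals, a gene-level interaction within those distances of 0 could not be told from none here. The call adjusted over all genes was stricter, and interactions beyond those distances went uncalled too. Egln3 at 0.86 and Mboat2 at -1.92 were among them. The counts also turned on single arrays: without 3xTgAD/Polb+/- replicate 3, 1176 genes had an unadjusted p under 0.05, and still none passed adjustment. Without 3xTgAD replicates 4 and 6 the unadjusted count was 588 and with the arrays of shared code averaged it was 569, with no gene past adjustment in either.

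Across genes, 4932 of 11072 (44.5%) had Polb differences of opposite sign with and without the transgenes. The correlation of the 2 differences across genes was 0.116. The pairs share no array, but they share the spelling term, and genes are not independent replicates. In the plot of these differences, the 24 well-detected genes with a symbol and the smallest p lie off the diagonal of equal difference.

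**Figure D1:**
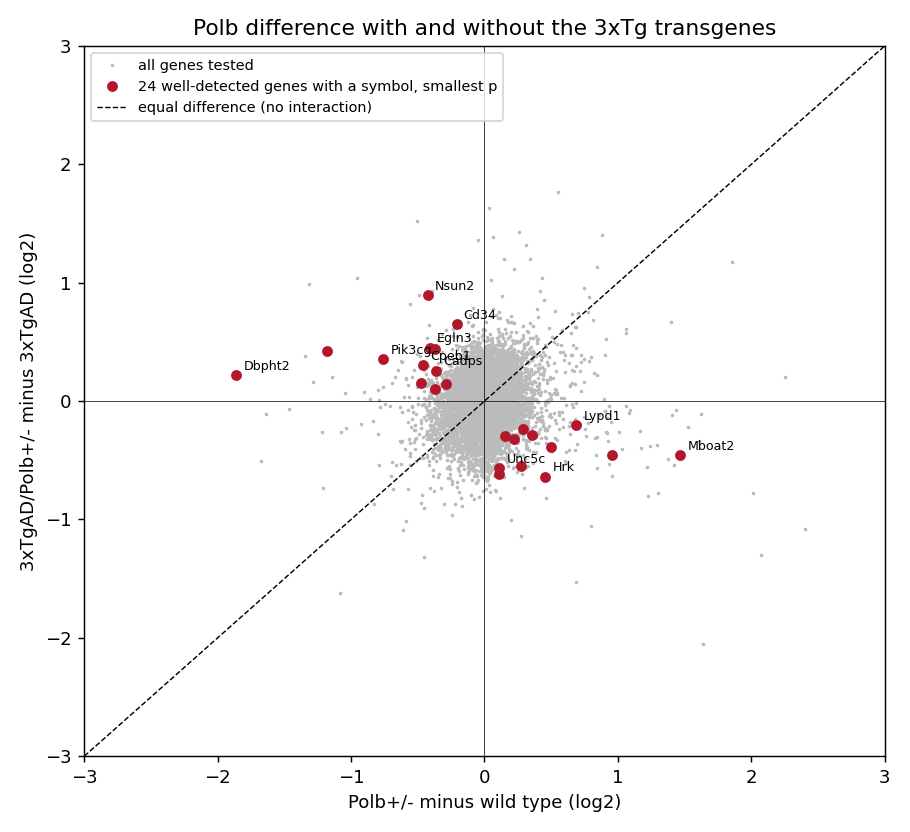
Each point is a gene, with its fitted log2 difference of Polb+/- from wild type on the horizontal axis and of 3xTgAD/Polb+/- from 3xTgAD on the vertical axis. The dashed diagonal marks an interaction of 0, and the 24 red genes with a symbol and the smallest p (12 per direction, chosen for that p among genes detected on more than 1 in 2 arrays of every genotype) lie in the upper left or the lower right; Dbpht2 has a vertical value of 0.22 and a horizontal one of -1.86, and Mboat2 -0.46 and 1.47.

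The genes named next are those with the smallest interaction p in each direction among genes that have a symbol and were detected on more than 1 in 2 arrays of every genotype. None passed the test, so their values are given as a description. The smallest p of all belonged to Egln3, the HIF prolyl hydroxylase PHD3, which acts in the cellular response to low oxygen and is itself a target of the hypoxia-inducible factor. Its log2 intensity was 7.35, 7.68, 7.58 and 7.9 in 3xTgAD/Polb+/-, 7.02 to 7.35 with a median of 7.17 in 3xTgAD, 6.72, 7.2, 6.72 and 6.77 in Polb+/-, and 7.34, 7.36, 7.56, 6.99 and 7.13 in wild type. All 3xTgAD/Polb+/- arrays lay at or above the highest 3xTgAD array to 2 decimals, and 3 of the 4 Polb+/- arrays lay below every wild type array. The Polb difference was 0.45 ± 0.13 with the transgenes and -0.41 ± 0.14 without them, an interaction of 0.86 ± 0.19 (unadjusted p = 0.000224, adjusted p = 0.652). It ranged from 0.77 to 0.98 when each array was left out in turn.

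The sequence before the Egln3 start is shown because the gene ranked first and is known to answer to the hypoxia-inducible factor, whose binding site holds the core ACGTG. The 250 bases before the start come from RefSeq on GRCm38.p6, chr12:54203875-54204124, minus strand, read 5′ to 3′ toward the gene, with the core in capitals.
Egln3: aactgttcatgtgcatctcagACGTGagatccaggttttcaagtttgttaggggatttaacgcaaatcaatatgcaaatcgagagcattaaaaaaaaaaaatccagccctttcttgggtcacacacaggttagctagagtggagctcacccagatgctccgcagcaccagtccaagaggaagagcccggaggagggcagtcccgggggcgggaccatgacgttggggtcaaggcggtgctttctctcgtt
The core occurs there 1 time on either strand, at 229 bases before the start, and 16.6% of 32851 promoter windows of this length hold it on either strand. This describes the letters only.

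Cpeb1, which binds messenger RNA tails and controls local translation at synapses, had values of 8.5, 8.72, 8.26 and 7.75 in 3xTgAD/Polb+/-, 7.75 to 8.41 with a median of 7.88 in 3xTgAD, 7.88, 7.92, 7.7 and 7.45 in Polb+/-, and 8.04, 8.02, 8.04, 8.34 and 8.26 in wild type. Every Polb+/- array was below every wild type array, while the transgenic groups overlapped. The interaction was 0.77 ± 0.17 (unadjusted p = 0.000299). Pik3cg, the catalytic subunit of the gamma form of phosphoinositide 3-kinase, had an interaction of 1.11 ± 0.26, with group means of 6.57, 6.22, 6.15 and 6.82 in 3xTgAD/Polb+/-, 3xTgAD, Polb+/- and wild type, and both pairs overlapped. Cadps, which primes dense-core vesicles for release, showed the Cpeb1 arrangement at a higher intensity: 11.65 to 12.34 in 3xTgAD/Polb+/-, 11.55 to 11.74 in 3xTgAD, 11.35 to 11.49 in Polb+/- and 11.58 to 12.06 in wild type, for an interaction of 0.62 ± 0.17. Zfp661, a zinc finger gene, and Tmem108, a transmembrane protein, had interactions of 0.43 ± 0.12 and 0.63 ± 0.18. In these genes too the Polb+/- arrays lay below all wild type arrays and the transgenic pair overlapped.

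Several positive interactions rested on low values in some Polb+/- arrays. Dbpht2 had values of 9.31, 9.35, 9.69 and 9.72 in 3xTgAD/Polb+/-, 9.08 to 9.5 with a median of 9.31 in 3xTgAD, 6.02, 8.59, 5.87 and 8.12 in Polb+/-, and 9.17, 9.42, 8.55, 8.78 and 9.49 in wild type. Polb+/- replicates 1 and 3 stood apart, and the other three groups lay within 8.55 to 9.72. The interaction was 2.08 ± 0.53 (adjusted p = 0.835). Bckdhb, a subunit of the enzyme that breaks down branched-chain keto acids, was lowest on the same arrays: 8.77, 8.8, 8.2 and 8.06 in 3xTgAD/Polb+/-, 7.41 to 8.55 with a median of 8.08 in 3xTgAD, 6.41, 7.75, 6.32 and 8.28 in Polb+/-, and 8.2, 8.15, 8.51, 8.44 and 8.41 in wild type. Its interaction was 1.60 ± 0.44 (adjusted p = 0.835). Leaving out Polb+/- replicate 2 gave Dbpht2 an adjusted p of 0.0255, and leaving out Polb+/- replicate 4 gave Bckdhb an adjusted p of 0.0343. These are the higher arrays of the group in each case, and each gene was the single call of that fit.

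Vps33a, a subunit of the HOPS complex that tethers vesicles to lysosomes, differed in another way. The Polb+/- arrays were close together at 10.45, 10.45, 10.48 and 10.57, below the 3xTgAD/Polb+/- arrays at 11.28, 11.2, 11.46 and 11.46 and the 3xTgAD arrays at 11.03 to 11.46. The wild type arrays were split, at 11.22, 11.31, 10.78, 10.56 and 10.65, with the "20 month" arrays high and the "20- month" arrays low. The interaction was 0.48 ± 0.13. Nsun2, which methylates cytosines in RNA, had 6.45, 6.4, 7.21 and 6.58 in 3xTgAD/Polb+/-, 5.29 to 6.53 with a median of 5.76 in 3xTgAD, 5.27, 5.27, 5.37 and 5.96 in Polb+/-, and 6.43, 6.51, 5.62, 5.42 and 5.76 in wild type. It was 1.32 ± 0.33. Cd34, a surface sialomucin of vascular cells and blood progenitors, was 0.86 ± 0.23, and Plcb4, a phospholipase C that acts downstream of metabotropic glutamate receptors, was 0.81 ± 0.22. In Nsun2, Cd34 and Plcb4 both pairs of groups overlapped.

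**Figure D2:**
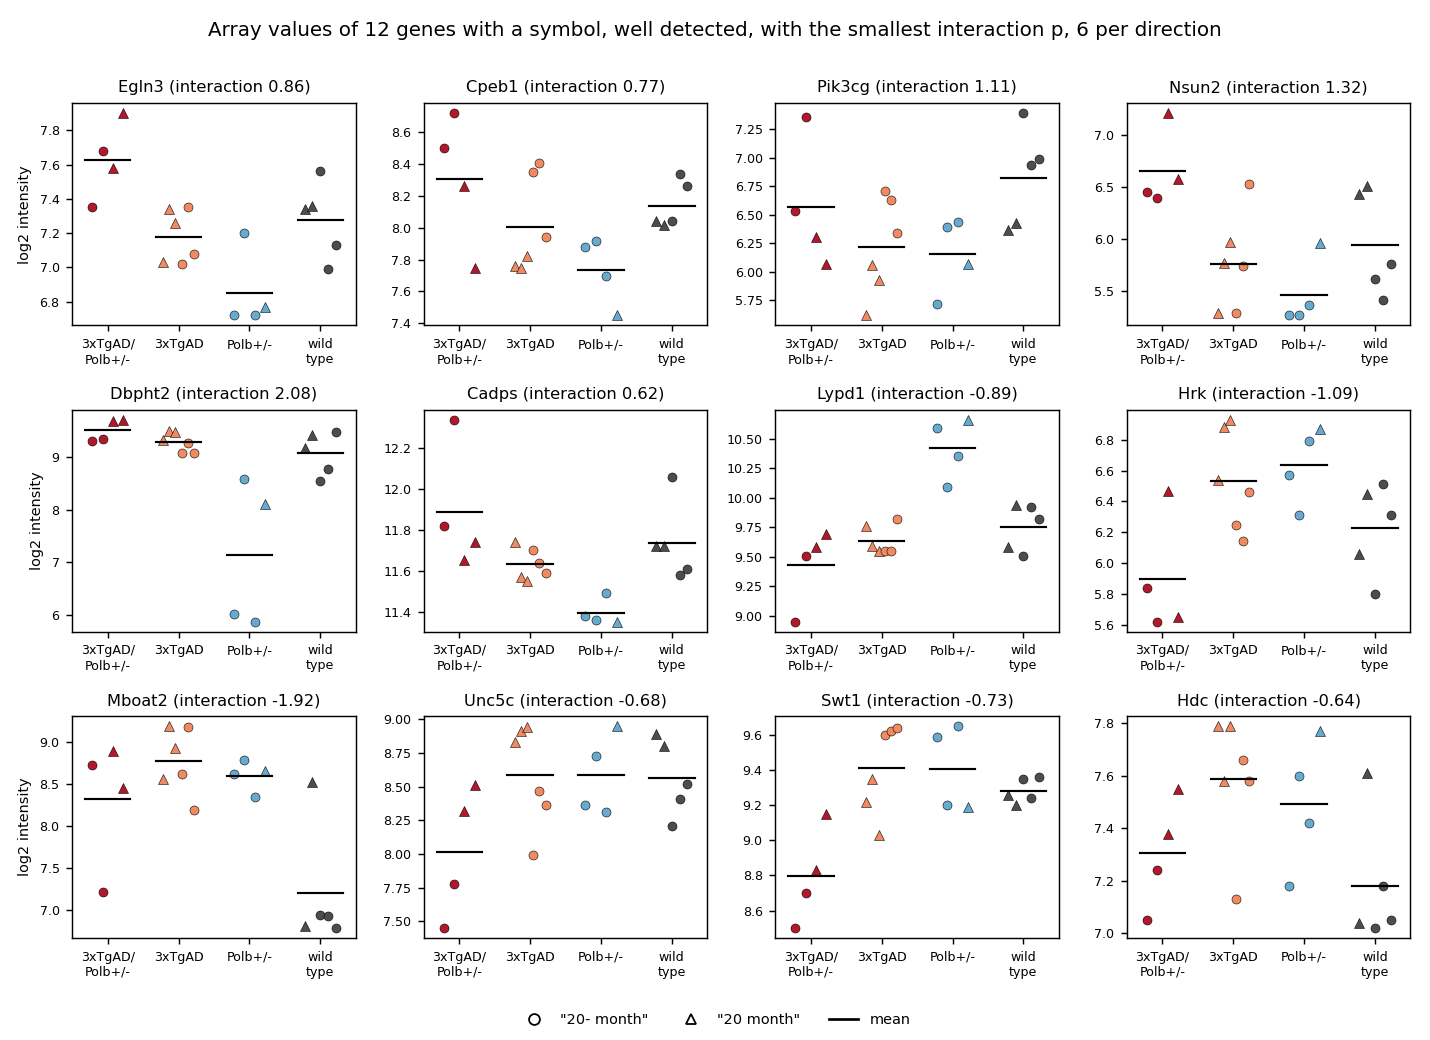
Log2 intensity (vertical axes, each with its own range) on each of the 19 arrays for 6 positive and 6 negative well-detected genes with a symbol and the smallest interaction p, by genotype along the horizontal axis; bars are group means, circles mark "20- month" arrays and triangles "20 month" arrays. Egln3 has its highest mean in 3xTgAD/Polb+/-, Lypd1 is highest in Polb+/-, and Dbpht2 and Mboat2 show arrays far from the rest of their group.

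Among the negative interactions, Lypd1 had the smallest p. It encodes a membrane-anchored protein of the Ly6 family that binds nicotinic acetylcholine receptors. Its values were 8.95, 9.51, 9.58 and 9.69 in 3xTgAD/Polb+/-, 9.55 to 9.82 with a median of 9.57 in 3xTgAD, 10.59, 10.09, 10.35 and 10.66 in Polb+/-, and 9.58, 9.94, 9.51, 9.92 and 9.82 in wild type. All Polb+/- arrays were above every array of the other groups, and the transgenic pair overlapped. The Polb difference was -0.21 ± 0.14 with the transgenes and 0.69 ± 0.14 without them, an interaction of -0.89 ± 0.20 (unadjusted p = 0.00024, adjusted p = 0.652). It was -1.004 within the "20- month" arrays and -0.90 within the "20 month" arrays.

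Hrk, a BH3-only protein that promotes apoptosis in neurons, had 5.84, 5.62, 6.47 and 5.65 in 3xTgAD/Polb+/-, 6.14 to 6.93 with a median of 6.5 in 3xTgAD, 6.57, 6.31, 6.79 and 6.87 in Polb+/-, and 6.06, 6.45, 5.8, 6.51 and 6.31 in wild type. Of the 3xTgAD/Polb+/- arrays, 3 lay below every 3xTgAD array, and replicate 3 lay among them. The interaction was -1.09 ± 0.24 (adjusted p = 0.652). Rgs8, a regulator that shortens G protein signalling, was the gene of the negative set whose 3xTgAD/Polb+/- arrays (9.47 to 9.88) all lay below the 3xTgAD arrays (9.98 to 10.16), while Polb+/- (9.94 to 10.2) and wild type (9.68 to 10.19) overlapped. Its interaction was -0.54 ± 0.15.

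Unc5c, a netrin receptor of axon guidance, and Swt1 differed mainly in the transgenic pair. Unc5c had a Polb difference of -0.57 ± 0.12 with the transgenes and 0.11 ± 0.12 without them, and Swt1 had -0.62 ± 0.14 and 0.11 ± 0.14. The Swt1 values were 8.5, 8.7, 8.83 and 9.15 in 3xTgAD/Polb+/-, 9.03 to 9.64 with a median of 9.48 in 3xTgAD, 9.59, 9.2, 9.65 and 9.19 in Polb+/-, and 9.26, 9.2, 9.35, 9.24 and 9.36 in wild type. The interactions were -0.68 ± 0.17 for Unc5c and -0.73 ± 0.20 for Swt1, of which a further kept probe gave -0.45 ± 0.16. Pptc7, a phosphatase of mitochondria, also had its larger difference in the transgenic pair, at -0.55 ± 0.17, against 0.27 ± 0.18 without the transgenes.

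Mboat2, an enzyme that adds fatty acids to lysophospholipids, also had arrays far from the rest of their group. It had 8.73, 7.22, 8.89 and 8.45 in 3xTgAD/Polb+/-, 8.19 to 9.19 with a median of 8.78 in 3xTgAD, 8.62, 8.78, 8.35 and 8.65 in Polb+/-, and 6.82, 8.53, 6.95, 6.93 and 6.79 in wild type. Of the wild type arrays, 4 lay between 6.79 and 6.95 and replicate 2 was at 8.53, among the mutants. The interaction was -1.92 ± 0.43, and the 4 kept probes of the gene gave -0.92 to -1.92. Doc2b, a calcium sensor of transmitter release, had an interaction of -1.41 ± 0.41. Its Polb+/- arrays (8.46 to 8.75) lay above all wild type arrays (6.64 to 8.26), and the 3xTgAD/Polb+/- arrays (6.74 to 7.34) overlapped the 3xTgAD arrays (6.74 to 8.39).

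The other negative genes were Hdc, which makes histamine (-0.64 ± 0.18), Acy1, an aminoacylase (-0.89 ± 0.26), Lgi4, a secreted protein of peripheral myelination (-0.45 ± 0.13), and Slc4a8, a sodium-driven bicarbonate transporter (-0.52 ± 0.15). A further kept probe of Slc4a8 gave 0.021, so the probes of that gene disagree. When each kept probe was tested on its own, 1 of 14942 passed, a probe of Greb1, a gene known as an oestrogen-responsive cofactor. The gene was singled out after its values were seen. This probe was detected on 3 of 4 3xTgAD/Polb+/- arrays (5.57, 5.69, 5.51 and 5.4), 1 of 6 3xTgAD arrays (4.76 to 5.39), 0 of 4 Polb+/- arrays (4.97, 5.11, 5.01 and 4.86) and 4 of 5 wild type arrays (5.39, 5.32, 5.97, 5.56 and 5.81). The interaction was 1.23 ± 0.15 (adjusted p = 0.00138), on values at or near background in 3xTgAD and Polb+/-. The probe that stood for Greb1 above, with the higher mean, gave 0.64 ± 0.34.

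Chromosome 12 had the highest share of genes with an unadjusted p under 0.01. Of 337 tested genes placed there, 11 had such a p (3.26%), against 120 of 10213 placed genes (1.17%), 6 of them positive and 5 negative. Egln3, Pik3cg, Dbpht2, Mboat2 and the astrocyte neurotensin receptor Ntsr2 were among them. Twistnb and Sstr1, singled out here after their values were seen, were among them too, but not on measured values throughout, so they have no fold. Twistnb, a subunit of RNA polymerase I, was detected on 2 of 4, 2 of 6, 4 of 4 and 1 of 5 arrays of 3xTgAD/Polb+/-, 3xTgAD, Polb+/- and wild type, and Sstr1, a somatostatin receptor, on 4 of 4, 6 of 6, 1 of 4 and 5 of 5. In order along the chromosome the 11 genes ran from position 8 to position 180 of the 337, with positive and negative genes interspersed. Chromosome 1 came next, with 13 of 532 genes (2.44%), Lypd1, Cd34, Swt1 and Rgs8 among them. Polb lies on chromosome 8, where 3 of 560 genes (0.536%) had a p under 0.01.

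The other genes are given by 36 lists, of which 767 distinct genes were tested. An unadjusted p under 0.05 was found for 47 of them (6.13%, against 5.56% of all genes), 17 positive and 30 negative, and none passed adjustment. Most lists had a median near the 0.017 of all genes. Those furthest from it are described first.

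**Figure D3:**
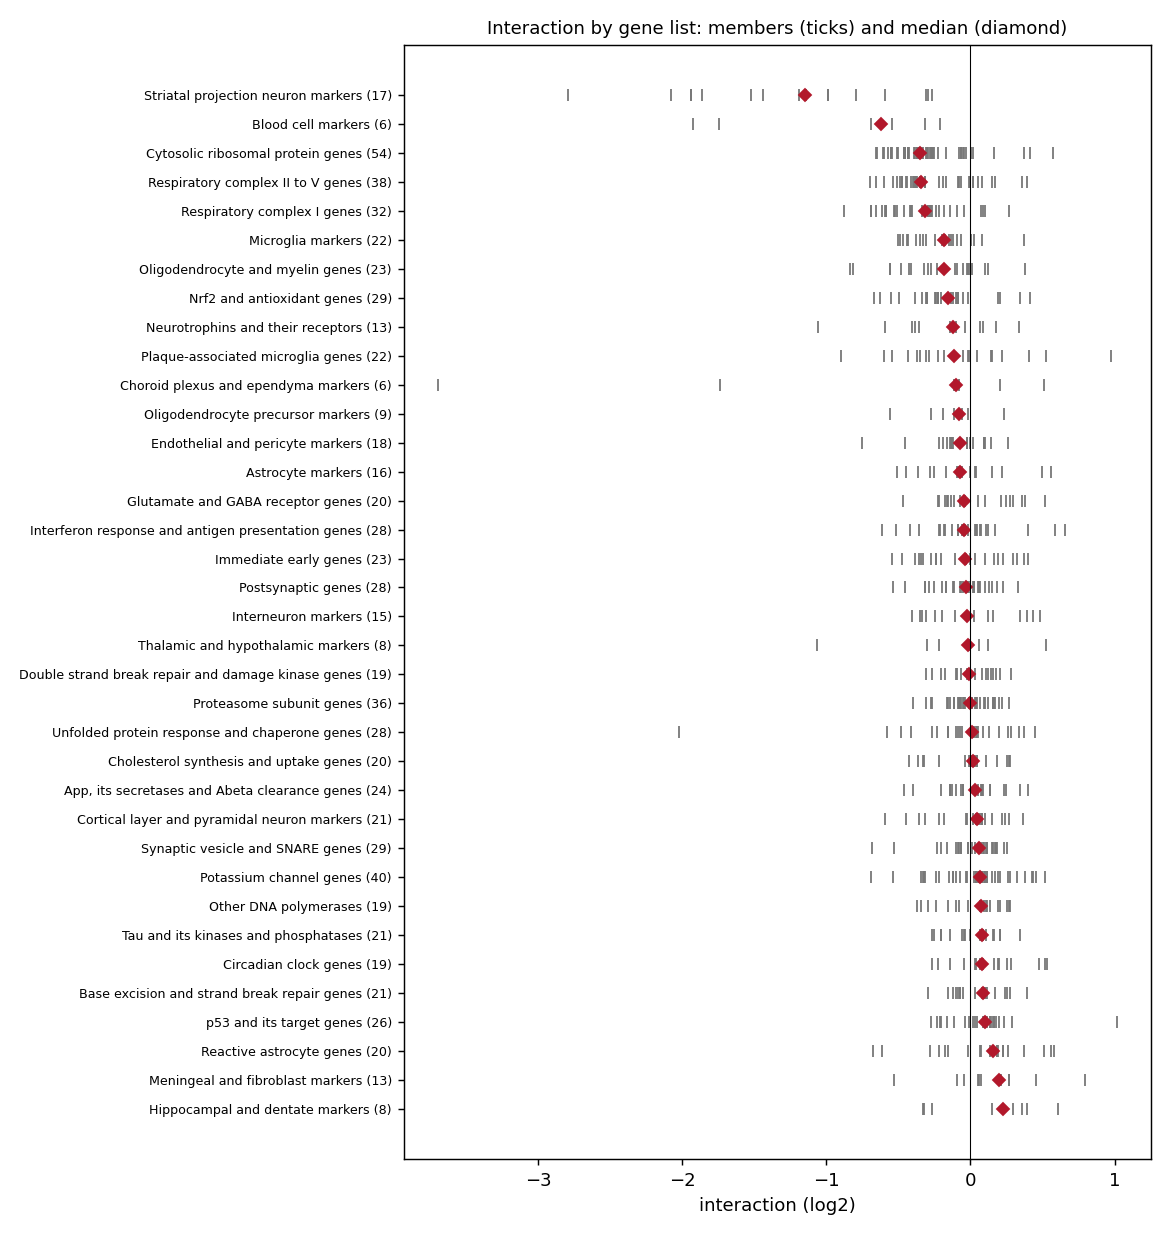
Fitted interaction (horizontal axis, log2) of each tested member (grey ticks) of each gene list, with the list's median (red diamond) and the number of members tested in brackets. The 17 striatal markers all lie below 0, with a median of -1.15, and the respiratory and ribosomal lists lie mostly below 0.

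Markers of striatal projection neurons had the lowest median. All 17 tested members were negative, 8 with an unadjusted p under 0.05 (47.1%, against 5.56% of all genes), and the median was -1.15. Their Polb differences were below 0 in 16 of 17 members with the transgenes (median -0.25) and above 0 in 17 of 17 without them (median 0.90). The mean over the list was 8.54, 8.44, 7.88 and 8.54 in 3xTgAD/Polb+/-, 8.03 to 9.87 with a median of 8.13 in 3xTgAD, 10.19, 9.49, 10.16 and 9.8 in Polb+/-, and 7.76, 9.63, 8.2, 9.78 and 8.91 in wild type. All 3xTgAD/Polb+/- arrays were below all Polb+/- arrays, while 3xTgAD and wild type each held low and high arrays. The high 3xTgAD arrays were replicates 4 and 6, the arrays with low Polb. By the median array, the list mean was 8.49 in 3xTgAD/Polb+/- and 8.13 in 3xTgAD, the reverse of the fitted differences with the transgenes. In dissected tissue, more cells of a type and more RNA per cell cannot be told apart.

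Pde1b, a phosphodiesterase abundant in striatum, had 11.28 to 11.79 in 3xTgAD/Polb+/-, 11.35 to 12.29 in 3xTgAD, 12.29 to 12.67 in Polb+/- and 11.39 to 12.42 in wild type, an interaction of -0.79 ± 0.29 (unadjusted p = 0.0129). Gng7, a G protein subunit of striatal dopamine signalling, was -1.14 ± 0.45, while a further kept probe gave -0.40 ± 0.30. Isl1, a transcription factor of striatal neurons of the direct pathway, was detected on 1 of 4, 2 of 6, 4 of 4 and 3 of 5 arrays of 3xTgAD/Polb+/-, 3xTgAD, Polb+/- and wild type. Among members outside the naming rule, chosen after their values were seen, Ppp1r1b (DARPP-32) was -1.15 ± 0.48 and Drd2, a dopamine receptor, -1.86 ± 0.87.

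The median of the striatal list was -1.66 within the "20- month" arrays and -0.96 within the "20 month" arrays, and it was -0.75 without 3xTgAD replicates 4 and 6. With the mean of the list on each array as a covariate it was 0.041, as the covariate is made of the same genes. Genes outside the list differed by setting too. With that covariate Doc2b was -0.58 in place of -1.41, Clic6, a chloride channel gene, -0.56 in place of -1.74, Acy1 -0.44 in place of -0.89 and Tmem108 0.37 in place of 0.63. Egln3 was 0.68, Lypd1 -0.66, Hrk -0.93, Cpeb1 0.73 and Mboat2 -1.73 in the same fit. Whether the dissection of the cortex had a part in these differences was not tested.

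**Figure D4:**
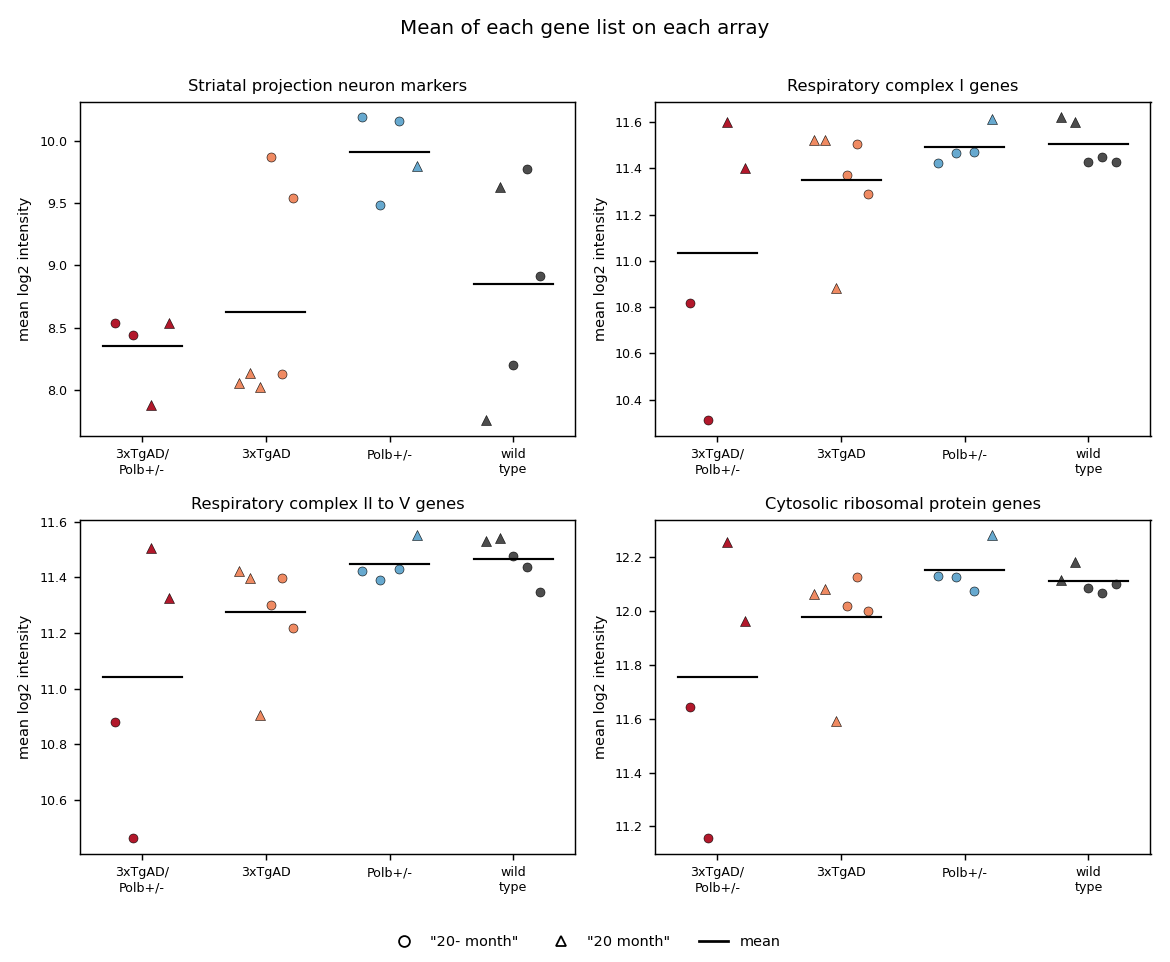
Mean log2 intensity (vertical axes, each with its own range) over the members of 4 gene lists on each of the 19 arrays, by genotype; bars are group means, circles mark "20- month" arrays and triangles "20 month" arrays. The striatal panel shows Polb+/- high and 3xTgAD and wild type split, and the other panels show "20- month" 3xTgAD/Polb+/- arrays and 3xTgAD replicate 3 below the rest.

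Genes of respiration and of the cytosolic ribosome followed. Of 32 subunits of respiratory complex I, which passes electrons from NADH into the mitochondrial chain, 28 were negative and 4 positive, with a median of -0.31 and 1 unadjusted p under 0.05. Of 38 genes of complexes II to V, 30 were negative and 8 positive, with a median of -0.35 and 1 such p. Of 54 cytosolic ribosomal protein genes, 48 were negative and 6 positive, with a median of -0.35 and 2 such p-values. The shares under 0.05 (3.12%, 2.63% and 3.7%) were below the 5.56% of all genes. Ndufb2 of complex I was -0.88 ± 0.38, Sdhc of complex II was -0.51 ± 0.22, and the ribosomal genes Rpl23a and Rpl13a were -0.66 ± 0.30 and -0.39 ± 0.18. Without 3xTgAD/Polb+/- replicate 2, Ndufb2 was -0.58 and Rpl23a -0.37.

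These lists turned on the arrays chosen. The complex I mean was 10.82, 10.31, 11.6 and 11.4 in 3xTgAD/Polb+/-, 10.88 to 11.52 with a median of 11.44 in 3xTgAD, 11.42 to 11.61 in Polb+/- and 11.43 to 11.62 in wild type. Low values stood on the "20- month" 3xTgAD/Polb+/- arrays and on 3xTgAD replicate 3, a "20 month" array. Within the "20- month" arrays the medians were -0.90 for complex I, -0.78 for complexes II to V and -0.77 for the ribosomal genes, and within the "20 month" arrays they were 0.14, 0.15 and 0.11. Without 3xTgAD/Polb+/- replicate 2 they were -0.12, -0.096 and -0.12.

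Within the "20- month" arrays alone (2, 3, 3 and 3 arrays of 3xTgAD/Polb+/-, 3xTgAD, Polb+/- and wild type), 151 genes passed adjustment, 15 positive (0.135%) and 136 negative (1.23%). Among them were 10 of 32 complex I genes, 10 of 38 of complexes II to V and 17 of 54 ribosomal genes, all negative. Of the other genes named in the text, Swt1 (-1.19), Mboat2 (-2.39), Doc2b (-2.02), Pptc7 (-1.20), Mt1 (-1.06), Plcb4 (1.27), Bckdhb (2.07) and Grm8 (0.76) were called there, as were Ndufb2 (-1.45) and Rpl23a (-1.27) of the lists. Estimates in the "20 month" arrays were -0.17 for Swt1, -1.20 for Mboat2, -0.98 for Doc2b, -0.38 for Pptc7 and -0.38 for Mt1. They were 0.15 for Plcb4, 0.28 for Bckdhb, -0.10 for Grm8, -0.44 for Ndufb2 and 0.016 for Rpl23a. Within the 8 "20 month" arrays, where Polb+/- is a single array, 1 gene passed (0.00903%), the lactoferrin gene Ltf, at -3.62 ± 0.28. This fit assumes that the lone Polb+/- array varies like the arrays of the other genotypes, and Ltf was detected on 0 of the 2 wild type arrays there, so its estimate is no measured fold. Ltf is named because it was the only call, and over all arrays it was -1.10 ± 0.78. A test of whether the interaction differs between the spellings was not run.

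**Figure D5:**
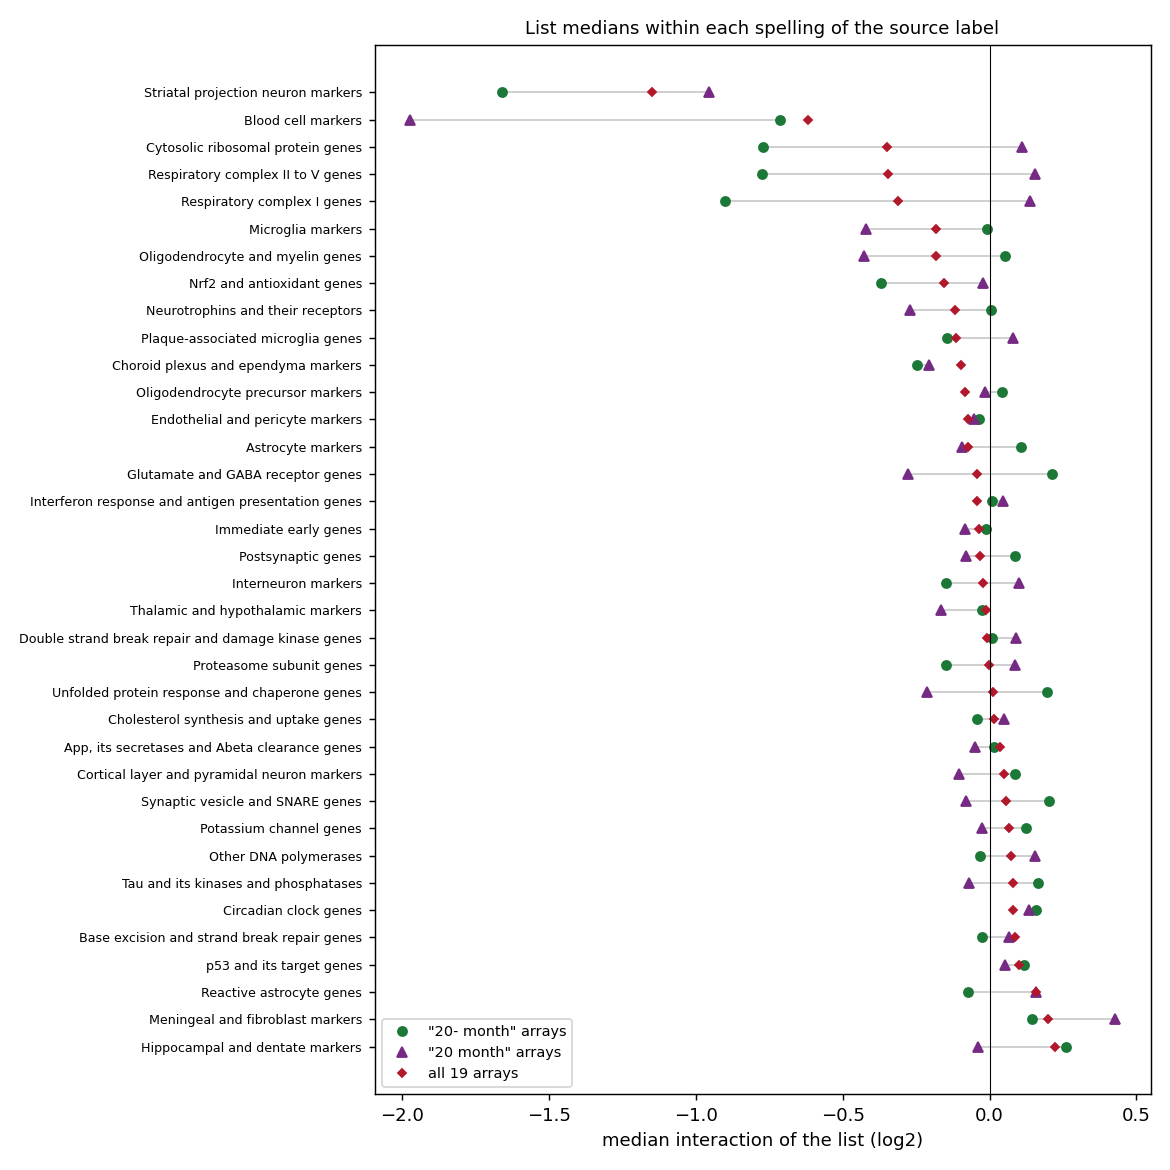
Median interaction (horizontal axis, log2) of each gene list within the 11 "20- month" arrays (green circles), within the 8 "20 month" arrays (purple triangles) and over all 19 (red diamonds). The striatal list is below 0 in both sets, while complex I lies at -0.90 and 0.14 and the ribosomal list at -0.77 and 0.11.

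Repair genes, the group that Polb belongs to, held no gene with an unadjusted p under 0.05. Of 21 tested genes of base excision and strand break repair, 13 were positive and 8 negative, with a median of 0.088 (0.0048 without Polb+/- replicate 4). The smallest p-values were those of Nthl1, a glycosylase for oxidised pyrimidines (-0.29 ± 0.17), Lig1, a DNA ligase (0.39 ± 0.23), and Mpg, a glycosylase for alkylated bases (0.24 ± 0.17). Other DNA polymerases (19 tested, median 0.073), double strand break repair and damage kinase genes (19 tested, median -0.010) and p53 with its targets (26 tested, median 0.099) had none under 0.05 either. These intervals do not exclude small differences: that of Lig1 ran from -0.10 to 0.88.

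The genes of the transgenes' pathways were measured by mouse probes, and whether these read the human transcripts was not tested. App, the amyloid precursor gene, had an interaction of 0.13 ± 0.14 and Mapt, the tau gene, 0.088 ± 0.16. Further kept Mapt probes gave 0.12 ± 0.15, -0.042 ± 0.19 and 0.72 ± 0.28. Thy1 was 0.27 ± 0.21 (0.14 without 3xTgAD/Polb+/- replicate 2). Among 24 genes of App processing and Abeta clearance, the median was 0.034 and Lrp1, a receptor that clears Abeta, had the single unadjusted p under 0.05, at 0.35 ± 0.15. Lrp1 was 0.20 without Polb+/- replicate 4, 0.13 within the "20- month" arrays and 0.81 within the "20 month" arrays. Tau kinases and phosphatases (21 tested) had a median of 0.078 and none under 0.05.

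Among glia, the lists of astrocytes, microglia and oligodendrocytes had medians of -0.072, -0.18 and -0.18. Of 16 astrocyte markers, Sox9, a glial transcription factor (0.50 ± 0.17), and Ranbp3l (0.56 ± 0.23) were positive and Ntsr2 (-0.51 ± 0.16) negative at an unadjusted p under 0.05. Of 22 microglia markers, 17 were negative and 5 positive. The only 1 with an unadjusted p under 0.05 was Sall1, a transcription factor of microglial identity, positive at 0.37 ± 0.14. A further kept Sall1 probe gave 0.27 ± 0.22. Within the "20- month" arrays 11 microglia markers were negative and 11 positive, with a median of -0.0089. Within the "20 month" arrays, where Polb+/- is a single array, 19 were negative and 3 positive, with a median of -0.42. Of 22 genes of plaque-associated microglia, 15 were negative and 7 positive, with a median of -0.11. The only 1 with an unadjusted p under 0.05 was Csf1, the ligand of the microglial growth factor receptor, positive at 0.52 ± 0.18. Its values were 7.07, 7.27, 6.2 and 6.11 in 3xTgAD/Polb+/-, 5.6 to 6.7 in 3xTgAD, 6.19 to 6.65 in Polb+/- and 6.19 to 6.78 in wild type. The "20- month" 3xTgAD/Polb+/- arrays were the high ones. Of 23 myelin genes, 19 were negative, among them Mobp, a myelin protein (-0.81 ± 0.27). Other kept Mobp probes gave -0.097 and -0.38, and the myelin median was 0.051 within the "20- month" arrays and -0.017 without 3xTgAD/Polb+/- replicate 3.

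Potassium channel genes were by count the list with the most positive members under 0.05, with 5 of 40 positive and 1 negative. Together these were 15%, against 5.56% of all genes, and the median was 0.067. That share counts the negative member, Kcna5, which met the detection filter only through the Polb+/- arrays, so its p is no support. By share, the hippocampal and dentate list was higher, with 2 of 8 positive (25%). Kcnip1, an auxiliary subunit of A-type channels, had 7.12 to 7.32 in 3xTgAD/Polb+/-, 6.5 to 6.88 in 3xTgAD, 6.81 to 7 in Polb+/- and 6.58 to 7.03 in wild type. The 3xTgAD/Polb+/- arrays lay above all others, and the interaction was 0.38 ± 0.14. Kcnq5, a channel of the M current, was 0.52 ± 0.15. Kcna5 was detected on all 4 Polb+/- arrays and on none of the others, so it has no fold. Without 3xTgAD/Polb+/- replicate 2 the median of the list was -0.0018.

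Of the remaining neuronal genes, Grm8, a presynaptic glutamate receptor, was 0.52 ± 0.20 and Gria1, an AMPA receptor subunit, -0.47 ± 0.21. Cplx2, a complexin of vesicle fusion, was -0.68 ± 0.25, and its lowest arrays were 3xTgAD/Polb+/- replicates 2 and 4 at 10.57 and 11.05. Neurod2, a transcription factor of cortical neurons, was 0.36 ± 0.14. Of 13 tested genes of neurotrophins and their receptors, 4 had an unadjusted p under 0.05, all negative (30.8%, against 5.56% of all genes). Among these 4, Sorcs2 and Ngfr, receptors that bind pro-neurotrophins, were -0.59 ± 0.26 and -0.39 ± 0.18. Sorcs2 was -0.37 without 3xTgAD/Polb+/- replicate 2 and -0.24 within the "20 month" arrays. Gdnf, also among the 4, was detected on 0 of 4, 2 of 6, 4 of 4 and 1 of 5 arrays of 3xTgAD/Polb+/-, 3xTgAD, Polb+/- and wild type. Cartpt, a neuropeptide precursor, was -1.06 ± 0.37. The stress and defence genes with an unadjusted p under 0.05 were Ifit2, induced by interferon (0.65 ± 0.19, and 0.29 ± 0.22 by a further kept probe), the class Ib histocompatibility gene H2-T23 (-0.62 ± 0.27), the metallothionein Mt1 (-0.67 ± 0.28), the chaperone Calr (-0.58 ± 0.25) and the clock repressor Bhlhe40 (0.53 ± 0.20).

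Of 6 tested choroid plexus and ependyma markers, Ttr and Clic6 had an unadjusted p under 0.05, and the other four lay between -0.12 and 0.51. Ttr, the thyroxine carrier made by choroid plexus, had 4.52, 5.69, 7.24 and 5.31 in 3xTgAD/Polb+/-, 6.9 to 8.47 with a median of 7.8 in 3xTgAD, 8.19, 11.13, 7.83 and 6.87 in Polb+/-, and 4.78, 6.43, 7.21, 6.78 and 8.54 in wild type. It was detected on 2 of the 4 3xTgAD/Polb+/- arrays, and its interaction was -3.69 ± 1.001 on values that include undetected arrays. All 6 tested blood cell markers were negative, with a median of -0.62, and none had an unadjusted p under 0.05. The mean of that list spanned 7.90 to 10.15 in 3xTgAD/Polb+/-, 7.79 to 9.62 in 3xTgAD, 8.27 to 10.29 in Polb+/- and 7.88 to 9.06 in wild type. Their part in the other results was not tested.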

How the data were processed

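Per the file headers, the authors' non-normalised file holds an intensity for each of 25697 probes on each of 19 arrays and a detection p-value beside it. GenomeStudio 1.9.0 is named in the submitters' processing notes; other steps are not given in the sources used here. The other deposited table holds a score that equals, within 4.99988e-10, the z score of log10 intensity within each array, and it served as an alternative.

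Background correction from the detection p-values, quantile normalisation and the log2 step were done by neqc (offset 16) in limma 3.58.1 (R 4.3.3); the log2 values are computed here from the deposited intensities. Probes detected at p under 0.05 on at least 4 arrays were kept (14942). The probe with the highest mean stood for each gene, and 855 probes without a symbol were kept as genes of their own, giving 11072 in all. Of 23978 probes with a symbol, 23962 were matched by Entrez identifier. A limma fit over all arrays with 1 mean per genotype and a term for spelling (14 residual and 4.64 prior degrees of freedom) gave the interaction, tested two-sided with Benjamini-Hochberg adjustment over all genes. The code was tested on simulated data.

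Errors are SE from the fit. Per-array values are normalised log2 intensities, and the median raw intensity of an array ran from 67.7 to 109.1. Named genes are the 12 with a symbol and the smallest p in each direction that were detected on more than 1 in 2 arrays of every genotype, up to 3 members per list with the smallest p, and Polb, App, Mapt and Thy1; not all genes of this rule are described. The comparison, its genes and the lists were chosen with earlier results of these data known. Alternatives covered the spelling term, normalisation, filters, probes, single arrays, a replicate block and a striatal covariate.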

Additional observations from a re-analysis of the deposited data

Results flagged for a closer look

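For 66 genes (the 24 well-detected ones with a symbol and the smallest p, the list members named for an unadjusted p under 0.05, and Polb, App, Mapt and Thy1), the arrays of each of the 4 genotypes were searched for an array far from the others of its group. Of 264 such groups 15 held one, and chance alone flags about 1 in 20 groups.

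Among the genes with the smallest p, Egln3 was 7.2 on Polb+/- replicate 2, with the others of its group at 6.72 to 6.77. Mboat2 was 8.53 on wild type replicate 2, against 6.79 to 6.95. Nsun2 was 5.96 on Polb+/- replicate 4, against 5.27 to 5.37. Slc4a8 was 7.37 on 3xTgAD replicate 1, against 7.57 to 7.69. Hdc was 7.13 on 3xTgAD replicate 4, against 7.58 to 7.79, and 7.61 on wild type replicate 2, against 7.02 to 7.18. Without wild type replicate 2 the interaction of Mboat2 was -2.19, against -1.92 with it.

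Among list members, Ranbp3l was 7.63 on wild type replicate 2, against 8.43 to 8.72, Ntsr2 was 11.34 on wild type replicate 3, against 11.7 to 11.81, and Sox9 was 7.88 on wild type replicate 3, against 7.42 to 7.53. Grm8 was 7.75 on wild type replicate 1, against 7.97 to 8.04. Calr was 8.89 on Polb+/- replicate 4, against 8.18 to 8.26, and Dusp6, a phosphatase that shuts off ERK signalling, was 10.93 on the same array, against 11.33 to 11.4. Ngfr was 5.66 on Polb+/- replicate 3, against 6.16 to 6.19. Ndufb2 was 6.28 on 3xTgAD replicate 3, against 7.31 to 7.72, and this array had the lowest mean of its group in both respiratory lists. Kcna5 was 5.01 on 3xTgAD/Polb+/- replicate 3, against 4.73 to 4.77, and it was not detected on any array of that genotype. Polb+/- replicate 4 and wild type replicate 2 held 3 of these values each.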

How the results depend on the processing

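No gene passed adjustment over all 19 arrays under another normalisation, filter or variance model, without the spelling term (357 genes at an unadjusted p under 0.05), without a detection filter (992) or with the striatal covariate (435). The exceptions were the "20- month" arrays alone (151 past adjustment, 1889 unadjusted), the "20 month" arrays alone (1, Ltf) and every kept probe (1, Greb1). Leaving out single arrays gave 0 to 1 genes past adjustment (Dbpht2 without Polb+/- replicate 2, Bckdhb without Polb+/- replicate 4) and 479 to 1176 unadjusted (1176 without 3xTgAD/Polb+/- replicate 3). The sign of the estimate turned for App (-0.12), Mapt (-0.070), Rpl23a (0.016), Grm8 (-0.10) and Sdhc (0.0083) within the "20 month" arrays, and for Polb with the striatal covariate (-0.049); the cause was not tested. Polb was -0.0052 without 3xTgAD replicates 4 and 6, which were left out for their low Polb, so that value is lower by construction. With the replicate block, no gene passed (545 unadjusted, smallest adjusted p 0.18). Over 25 pairs of arrays of different genotype and equal replicate number, the correlation of deviations ran from -0.49 to 0.38, with a median of 0.086. Over 109 such pairs of unequal number it ran from -0.43 to 0.54, with a median of -0.023. Whether equal numbers mark paired arrays was not tested. Arrays of a group are few, and probes near background limit low genes such as Kcna5, Gdnf and Isl1.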

Other observations

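Of the lists not described above, those with the highest medians were small, and some differed in sign between the spellings. Markers of hippocampus and dentate gyrus had the highest median of all lists, 0.22 over 8 members, with Trpc6, a calcium-permeable channel (0.61 ± 0.26), and Nrip3 (0.30 ± 0.13) at an unadjusted p under 0.05. Trpc6 was 0.37 without 3xTgAD/Polb+/- replicate 2, 0.99 within the "20- month" arrays and 0.0081 within the "20 month" arrays. The list's median was 0.26 within the "20- month" arrays and -0.039 within the "20 month" arrays. Meningeal and fibroblast markers had a median of 0.20 over 13 members, with 10 positive and none at an unadjusted p under 0.05. Reactive astrocyte genes had a median of 0.16 over 20 members, and it was -0.074 within the "20- month" arrays and 0.16 within the "20 month" arrays. Circadian clock genes were positive in 15 of 19 members, with a median of 0.080 (0.16 within the "20- month" arrays and 0.13 within the "20 month" arrays), and Bhlhe40 was the single member at an unadjusted p under 0.05. No member of these lists passed adjustment.

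The myelin list was negative in 19 of 23 members within the "20 month" arrays, with a median of -0.43, and in 11 of 23 within the "20- month" arrays.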
